A study of Caenorhabditis elegans with 4 samples.

Results

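Within the genome of early *Caenorhabditis elegans* embryos, a small set of short stretches carried strong RNA polymerase II signal. These compact, strongly enriched regions numbered 518 of the 8121 regions in the list of polymerase II binding. They were selected on 2 deposited values of each region, a width of 1000 bp or less and a q-value of 1e-12 or less. The q-value is the p-value of immunoprecipitated against input DNA after correction for multiple tests. The limit of 1e-12 was met by 8.61% of the 6016 regions of 1000 bp or less and by 23.7% of all listed regions, and since the limit chose the members these shares are only a description. The remaining 5498 regions of 1000 bp or less, called the other short regions here, serve as the comparison.

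The study used chromatin immunoprecipitation followed by sequencing (ChIP-seq) on wild-type hermaphrodite N2, the laboratory reference strain, at the early embryo stage. Cultures were kept at 20 degrees Celsius and fixed in 2% formaldehyde. The data comprised 2 ChIP libraries, made with the mouse monoclonal antibody 8WG16, and 2 libraries of input DNA, and the labels list no mutant or treated group. The protocol text shared by the libraries names an anti-GFP serum instead, and the antibody entry of the ChIP libraries was followed. All 4 libraries enter a single deposited list with no value per library, so no result below has a replicate error, and none was given a p-value. Regions are not replicates of a condition.

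Polymerase II transcribes protein-coding genes and many small noncoding RNA genes. The largest subunit, AMA-1 in the worm, ends in a tail of repeated heptapeptides that is phosphorylated as the enzyme moves from initiation into elongation, and 8WG16 recognises that tail. Polymerase can therefore appear in ChIP as a narrow peak, where the enzyme gathers at a promoter or over a short gene, or as a broad stretch along a transcribed gene. In the worm, neighbouring genes are often arranged in operons, and the X chromosome of hermaphrodites is under dosage compensation. The list uses WormBase release WS180 coordinates, for which no gene annotation or genome sequence was used here, so the regions are identified by position and no gene is named.

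The members were wide for short regions and spanned a large range of strength. They measured between 210 and 1000 bp across, and the median was 734 bp (quartiles 599 and 863), against a median of 313 bp in the other short regions (169 and 531). Read numbers could be recovered from the q-values for 517 of the 518. A member held a median of 190 ChIP reads (range 72 to 914) and 53 input reads (range 2 to 133). The input number is the one used in the authors' test, after any scaling. The ratio of ChIP to input reads, called the fold here, had a median of 3.61 (quartiles 3.07 and 4.54), against 2.31 (1.94 and 2.92) in the other short regions. Summed over the set, 103891 ChIP and 28321 input reads fell into 374 kb. All of these measures come from the contrast that chose the members, so the differences are built in.

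**Figure D1:**
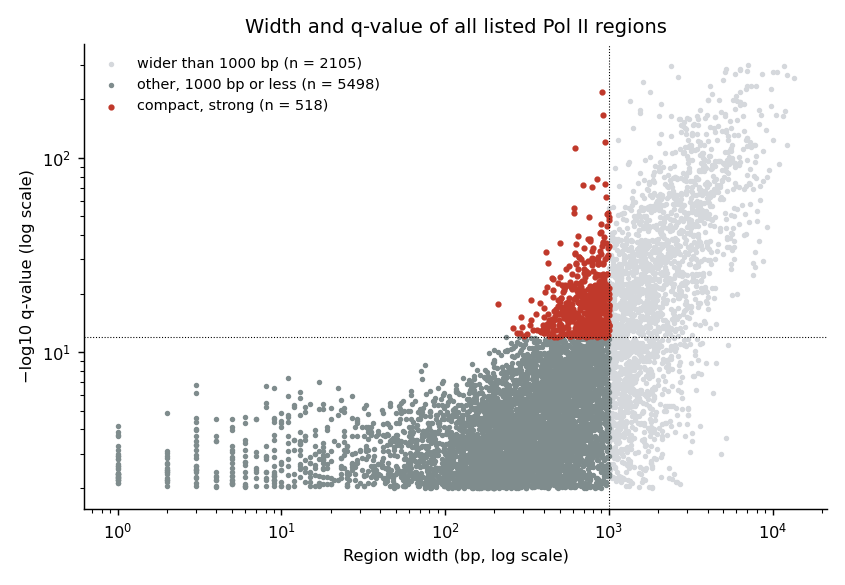
Width of each listed region (bp, log scale) against −log10 of its q-value (log scale), with dotted lines at the limits of 1000 bp and 1e-12. The 518 compact strong regions (red) fill the upper edge of the cloud left of the width limit and run up to a −log10 q of 217, beside 5498 other short regions (dark grey) and the wider regions (light grey).

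The members ran from the q limit to far past it, with a median −log10 q of 16.5. A q-value of 1e-15 or less was reached by 317 of them (61.2%), 1e-20 by 159 (30.7%), 1e-50 by 13 and 1e-100 by 4. Only 2 members stood among the first 100 lines of the list and 16 among the first 500, since most of the strongest lines are wider. Ranked instead by the lower 95% limit of the fold, members made up 6 of the first 10, 32 of the first 100 and 64 of the first 200 listed regions with read numbers. This ranking lacks the 47 ranks absent before the first line of the list. Of the 1408 wider regions past the q limit, 1405 had read numbers and could enter it. A fold of 5 or more was found in 88 of 517 members (17.0%), 7 or more in 26 and 10 or more in 10. Of the 10, chromosome II held 5 and chromosome V held 3.

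The median fold was higher in narrower members, because a region with few reads passes the q limit only at a high ratio. High folds also occurred in wider members, such as 24.7 at 911 bp and 22.8 at 620 bp. The 20 members of 201 to 400 bp had a median fold of 5.79 and a median of 102 ChIP and 17.5 input reads. The 95 members of 901 to 1000 bp had a median fold of 3.31, with 241 ChIP and 73 input reads. No member was 200 bp wide or less, although 1842 of the other short regions were. Among short regions wider than 500 bp, members held a median of 262 ChIP reads per kb and the others 204, and the order was opposite for input, at 75.7 and 103 reads per kb. Both differences are built in, since the q-value that separates the 2 groups is computed from these reads.

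**Figure D2:**
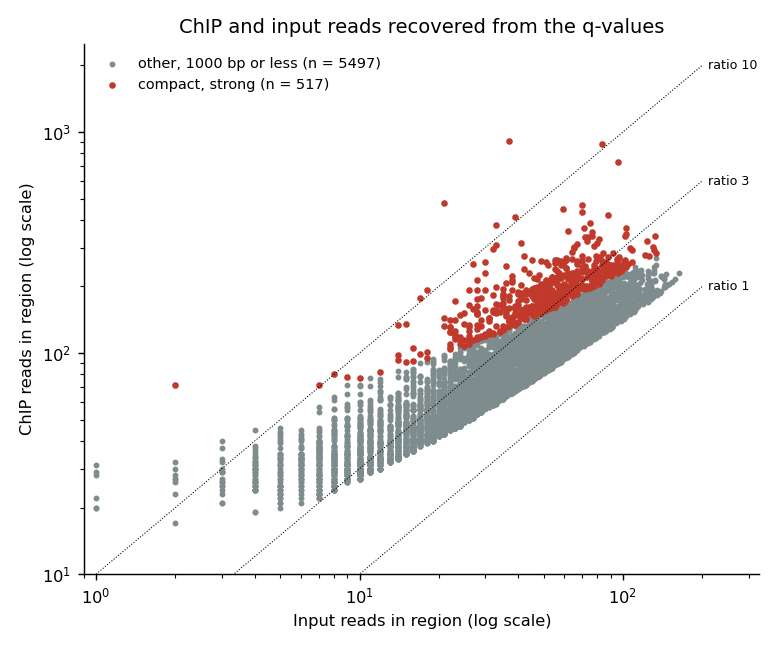
ChIP reads against input reads in each region of 1000 bp or less (both log scales), with dotted lines at ratios of 1, 3 and 10. The 517 members with read numbers (red) lie above the 5497 other short regions (grey) at every input level, and a few reach ratios over 10, among them 914 ChIP reads over 37 input reads and 72 over 2.

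The limits ran through a continuous range of regions. The widest members, both 1000 bp, lay at chrII:13018170-13019169 (273 ChIP and 97 input reads) and chrIII:6207953-6208952 (251 and 89). The narrowest strong regions outside the width limit, both 1002 bp, lay at chrIV:13964260-13965261 (187 and 52) and chrII:2233363-2234364 (169 and 46). Just inside the q limit were chrI:2280378-2280859, with 134 ChIP and 39 input reads at q = 9.99e-13, and chrIII:12725729-12726679, with 282 and 133 at q = 9.74e-13. Just outside it were chrIII:5632463-5633246, with 210 and 85 at q = 1.07e-12, and chrIII:12622692-12622926, with 77 and 11 at q = 1.13e-12. A region of fold 7 and 235 bp thus fell outside, while one of fold 2.12 and 951 bp fell inside.

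The strongest member by q-value and by the lower limit of the fold lay on chromosome II at chrII:13823953-13824863. It spanned 911 bp and held 914 ChIP and 37 input reads, which made a fold of 24.7 (95% interval 17.8 to 35.3) at q = 7.76e-218. Intervals are exact Clopper-Pearson intervals of counting error only. The narrowest member, chrII:13821987-13822196, stood 1756 bp before it, with 72 ChIP and 2 input reads in 210 bp. Its fold of 36 rests on 2 input reads and is known only as 9.61 to 303. Both stood between 2 strong wider regions, chrII:13815824-13817842 at a fold of 6.21 (5.30 to 7.30) and chrII:13828257-13829340 at 4.47 (3.47 to 5.82). The fold was therefore highest at the compact pair and lower in the flanking regions, whose intervals do not overlap that of either member.

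A comparable locus lay near the middle of chromosome V, where 3 members followed each other within 5.66 kb. The central one, chrV:9088637-9089256, held 479 ChIP against 21 input reads in 620 bp, a fold of 22.8 (14.8 to 37.2). The member 1632 bp before it, chrV:9086096-9087004, held 300 and 65 reads, a fold of 4.62 (3.52 to 6.13). The member 1654 bp after it, chrV:9090911-9091754, held 412 and 39 reads, a fold of 10.6 (7.60 to 15.1). The gaps on both sides were nearly equal, while the folds differed several-fold, and the interval of the first member did not overlap those of the other two. The next listed region, chrV:9095720-9097642, was weak, at a fold of 1.61 (1.34 to 1.93).

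Other leading members lay on chromosome II, some of them far from any listed region. Chromosome II at chrII:5844637-5845557 held 878 ChIP against 83 input reads, a fold of 10.6 (8.44 to 13.4) at q = 2.61e-166, and no listed region lay within 11459 bp of it. Its input of 90.1 reads per kb was over 2 times the 40.6 of the first member, so that a similar ChIP number gave a lower fold. The region chrII:14017884-14018494 held 294 and 32 reads, a fold of 9.19 (6.37 to 13.7), with no listed region within 13463 bp. The region chrII:6967745-6968686 held 734 and 96 reads, a fold of 7.65 (6.17 to 9.56) at q = 1.05e-120, and its neighbours after it had folds of only 2.13 to 2.36. With chrII:13852735-13853235, which held 193 and 18 reads at a fold of 10.7 (6.61 to 18.5), and a member at 13320545 described below, chromosome II supplied 7 of the 15 members with the highest lower limit of the fold.

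Leaving aside the chromosome V locus above, the folds of the leading members on the other chromosomes reached at most 10.4. On chromosome IV, chrIV:991165-991774 held 309 ChIP against 33 input reads, a fold of 9.36 (6.53 to 13.8), and chrIV:11400075-11400489 held 177 and 17, a fold of 10.4 (6.32 to 18.3). The latter stood 891 bp before a region of fold 3.91 (3.22 to 4.79). A short distance further, chrIV:11405480-11407880 was the third line of the whole list at q = 3.71e-296. Chromosome I was led by chrI:1966648-1967543, with 254 and 27 reads and a fold of 9.41 (6.31 to 14.6), followed by chrI:10516629-10517325 at 7.56 (5.75 to 10.1) and chrI:11176884-11177868 at 7.71 (5.55 to 10.9). The leader of chromosome III, chrIII:3297372-3297829, held 135 and 15 reads, a fold of 9.0 (5.27 to 16.5). On chromosome V, chrV:19640278-19641244 held 259 and 30 reads, a fold of 8.63 (5.90 to 13.1). By their intervals, the leading members of chromosomes I, III and IV cannot be placed in order. The 10 members with the lowest q-values also included chrV:14028000-14028785, with 466 ChIP and 70 input reads (6.66, 5.17 to 8.69), and chrI:7015481-7016445, with 433 and 70 (6.19, 4.80 to 8.08).

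Compact strong regions were concentrated on chromosome I and nearly missing from the X chromosome. Chromosome I carried 184 of the 518, or 35.5% (95% interval 31.4 to 39.8), whereas it carried 25.1% (24.0 to 26.3) of the other short regions. The X chromosome carried 5, or 0.965% (0.314 to 2.24), against 4.0% (3.50 to 4.55) of the others. Chromosomes II and III carried 101 and 100 members (19.5% and 19.3%, against 18.2% and 21.1% of the others), chromosome V carried 69 (13.3% against 15.6%) and chromosome IV carried 59 (11.4% against 16.0%). The intervals of members and others did not overlap on chromosomes I, IV and X and overlapped on II, III and V. Numbers per Mb were taken over each chromosome from its first to its last listed region. Members numbered 12.3 per Mb on chromosome I, 7.29 on III, 6.62 on II, 3.40 on IV, 3.31 on V and 0.284 on X. The other short regions followed the same order, at 92.2, 84.7, 65.8, 50.5, 41.1 and 12.5 per Mb.

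**Figure D3:**
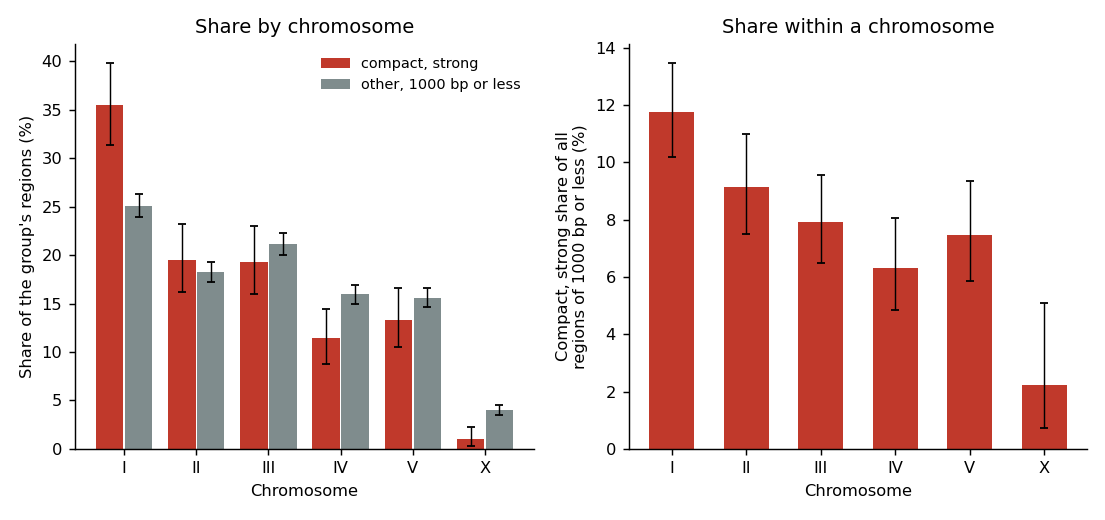
Left, share of the 518 compact strong regions (red) and of the 5498 other short regions (grey) on each chromosome, in percent. Right, percent of all regions of 1000 bp or less on a chromosome that were compact and strong, and error bars in both panels are exact 95% Clopper-Pearson intervals. Chromosome I is highest in both panels, with 35.5% of the members, and X is lowest, with 5 regions.

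Read within each chromosome, 11.8% of the short regions of chromosome I were members (184 of 1564, interval 10.2 to 13.5). The share was 9.15% on chromosome II (7.51 to 11.0), 7.92% on III (6.49 to 9.55), 7.46% on V (5.85 to 9.35), 6.30% on IV (4.83 to 8.06) and 2.22% on X (5 of 225, 0.725 to 5.11). The intervals of chromosomes next to each other in this order overlap. Those of I and X do not, nor does that of I overlap those of III, V and IV. Among short regions wider than 500 bp alone, the share was 33.3% on chromosome I, 25.4% on III, 25.1% on II, 17.5% on V, 16.1% on IV and 3.54% on X (4 of 113). X regions were thus rarely members in this narrower width range too. Width was not made equal by it, as its members had a median of 768 bp and its other regions 676 bp. Of all regions that met the q limit, at any width, 40.5% were compact on chromosome I (184 of 454), 19.8% on chromosome IV and 4.39% on X (5 of 114).

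All 5 X members had modest folds. The strongest, chrX:2328900-2329488, held 248 ChIP against 72 input reads, a fold of 3.44 (2.64 to 4.54). The others were chrX:3557603-3558246 at a fold of 3.15 (2.30 to 4.40), chrX:13665319-13665750 at 2.98 (2.18 to 4.14), chrX:15341694-15342679 at 2.58 (2.02 to 3.33) and chrX:13224929-13225772 at 2.53 (1.98 to 3.27). Their median fold was 2.98, below the medians of 3.46 to 3.90 on the autosomes. The intervals of the 5 overlap one another. A lower fold on X was not particular to members. The other short regions had a median fold of 1.90 on X and of 2.27 to 2.39 on the autosomes. The median input density of the 5 was 107 reads per kb, above the autosomal medians of 65.6 to 79.9, and the median ChIP density of 270 lay within the autosomal range of 247 to 278. Whether input density has a part in the low number of X members was not tested.

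A smaller share of members than of other short regions lay in the chromosome middles. The difference was larger among those wider than 500 bp. The central 33.3% of the chromosome spans held 134 of the 518 members, or 25.9% (22.1 to 29.9), and 30.01% of the other short regions (28.8 to 31.2), and these intervals overlap. The share was lower among members on chromosomes I, II, IV and X and higher by less than 1 percentage point on III and V. The difference, members minus others, was −4.14 percentage points, and it was −1.62 without chromosome I. Among short regions wider than 500 bp, 27.4% of the members (125 of 457) and 39.5% of the others (606 of 1533) were central, and the member share was lower on 6 of 6 chromosomes. It was 22.9% against 40.7% on chromosome I, 32.6% against 39.8% on II, 32.6% against 46.3% on III, 17.0% against 31.0% on IV and 33.3% against 44.3% on V. None of the 5 X members was central, which at this number allows a share of up to 52.2%. The wider regions that met the q limit were central in 35.4% of cases.

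Divided into 10 equal parts, the chromosome spans held most members from 90 to 100% of their length, 74 (14.3%, against 11.5% of the others). The part from 0 to 10% held 64 (12.4% against 11.9%). The fewest, 38 each, lay from 20 to 30% (7.34% against 10.3%) and from 40 to 50% (7.34% against 9.02%). In bins of 1 Mb, the most members were on chromosome I between 2 and 3 Mb, where 29 of 139 short regions (20.9%) were members. Chromosome I between 14 and 15 Mb followed with 24 of 150 (16.0%), then chromosome II between 11 and 12 Mb with 21 of 106 (19.8%) and chromosome III between 12 and 13 Mb with 20 of 116 (17.2%). No bin of chromosome IV held more than 9 and none of chromosome V more than 8. Their highest shares were both 14.6%, on IV between 4 and 5 Mb (7 of 48) and V between 8 and 9 Mb (6 of 41). On the X chromosome 14 of 18 bins held no member, against 0 of 15 on chromosome I. The X bins also held fewer short regions, 2 to 23 each, against 52 to 150 on chromosome I.

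Compact strong regions had close neighbours in the list more often than the other short regions. A listed region lay less than 1000 bp away from 362 of the 518 members, or 69.9% (65.7 to 73.8), and from 60.6% of the others (59.3 to 61.9). The median distance to the nearest listed region was 476 bp for members and 659 bp for the others. Close neighbours were not particular to members, since wider regions had medians of 396.5 bp past the q limit and 469 bp short of it. Among short regions wider than 500 bp the shares were 71.1% and 62.0%. The excess was present on chromosome I (74.5% against 62.1%), III (72 of 100 members, against 61.2%), V (73.9% against 64.6%) and II (63.4% against 57.4%). It was absent on chromosome IV (61.0% against 61.9%) and on X (2 of 5, against 41.8%), so that 4 of 6 chromosomes showed it. Only on chromosome I did the intervals of the 2 groups not overlap.

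**Figure D4:**
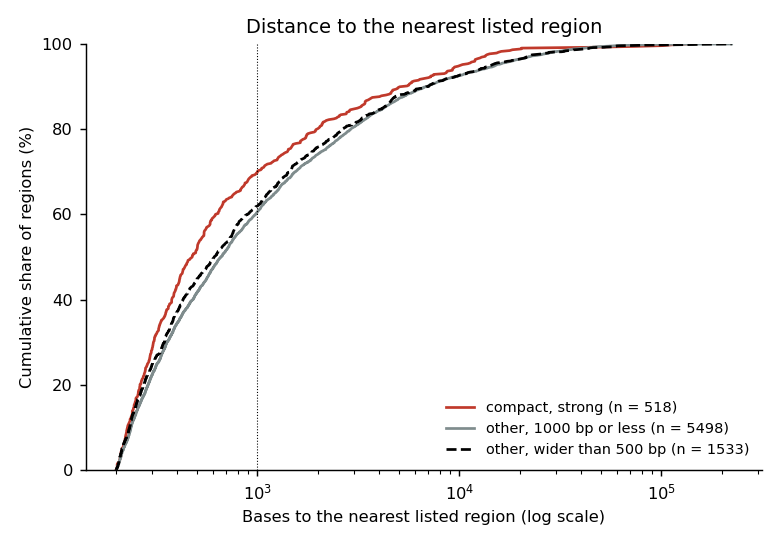
Cumulative share of regions (percent) by the number of bases to the nearest listed region (log scale), for members (red), other short regions (grey) and those of them wider than 500 bp (dashed), with a dotted line at 1000 bp. The member curve runs above the other curves up to about 10 kb, with 69.9% of members and 60.6% of the other short regions at 1000 bp.

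The excess differed between width classes without a steady trend. At 201 to 400 bp, 10 of the 20 members and 61.4% of the others had a listed region within 1000 bp, the only class in which the member share was lower. At 401 to 500 bp the shares were 65.9% of 41 members and 61.4% of the others. They were 64.3% and 58.6% in the class up to 600 bp and 64.2% and 62.6% in that up to 700 bp. They were 73.7% and 61.6% up to 800 bp, 73.5% and 61.7% up to 900 bp, and 77.9% and 70.7% up to 1000 bp. For regions of 500 bp or less as a whole, the difference was 0.580 percentage points with 61 members. Measured between midpoints the difference turned to −2.88 percentage points (33.8% of members and 36.7% of the others). A midpoint distance includes part of each width, and members are wider, but whether width accounts for the turn was not tested. The excess holds only for the gap between edges. The smallest gap in the list was 200 bp, and splitting of 1 bound stretch into several lines was not tested.

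Close neighbours on both sides were found for 127 members (24.5%) and 18.5% of the other short regions. A close neighbour on 1 side was found for 235 members (45.4%) and 42.1% of the others. Runs of listed regions joined by gaps under 1000 bp with 3 regions or more took in 253 members (48.8%) and 36.5% of the others, and runs of 5 or more took in 114 (22.0%) and 14.4%. Among the 362 members with a close neighbour, the nearest one was another short region outside the set for 229 (63.3%), a wider region past the q limit for 84 (23.2%), another member for 38 (10.5%) and a wider region short of the limit for 11 (3.04%). In the same order, these classes made up 67.7%, 17.3%, 6.38% and 8.58% of all listed regions. For the other short regions with a close neighbour, the nearest was past the q limit, at any width, in 23.4% of cases, against 33.7% for members. The median fold of the nearest neighbour was 2.82 for members and 2.46 for the others. The member had a higher fold than its neighbour in 261 of 361 cases (72.3%), which the choice by q-value favours.

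A minority of members stood alone. No listed region lay within 10 kb of 27 members (5.21%), against 7.44% of the other short regions. Of the 27, 7 lay on chromosome I, 6 each on II and IV, 4 on V, 2 on III and 2 on X. The most isolated was chrV:16225269-16225964, with 163 ChIP against 39 input reads, a fold of 4.18 (2.93 to 6.09) and 132560 bp to the nearest listed region. The region chrIV:14326544-14327186 had a fold of 2.53 (1.95 to 3.32) at a distance of 101324 bp, and the X member at 2328900 had a distance of 45188 bp. On chromosomes I, II and III the most isolated members, chrI:10085730-10086538, chrII:10367070-10367662 and chrIII:4229856-4230308, were 20218, 20286 and 12869 bp from any listed region, at folds of 3.33, 3.06 and 3.71. The 27 had a median fold of 3.66 and a median width of 611 bp, beside 3.60 and 758 bp for the 362 with a neighbour within 1000 bp.

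Members grouped with each other to a limited extent. Another member lay within 5 kb of 137 of the 518, or 26.4% (22.7 to 30.5), and the median distance from a member to the nearest other one was 24.9 kb (quartiles 4.37 and 96.5 kb). Joined by gaps of 5 kb or less, the 137 formed 56 groups, of which 39 were pairs, 11 had 3 members, 5 had 4 and 1 had 6. Gaps inside groups had a median of 1279 bp, and 34 of 81 were under 1000 bp. The grouped share was 36.4% on chromosome I (67 of 184), 30.4% on V, 26.7% on II, 16.0% on III, 10.2% on IV and 0 of 5 on X. Chromosome I also has the most members per Mb, and what density alone would give was not tested. Grouped members had a median fold of 3.8 (quartiles 3.11 and 4.67) and ungrouped ones 3.55 (3.06 and 4.39), so the ranges overlap widely.

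**Figure D5:**
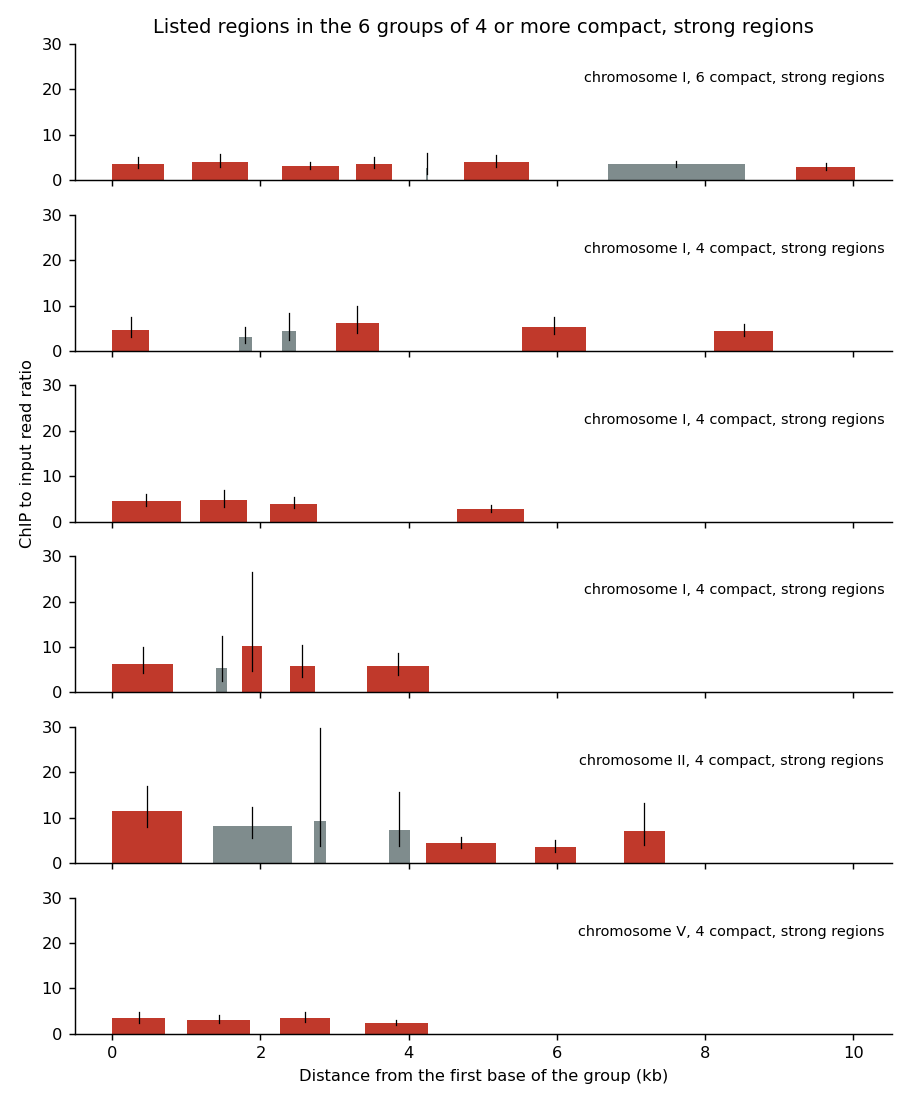
ChIP to input read ratio (height) and width of each listed region in the 6 groups with 4 or more members, drawn from the first base of each group (kb), with members in red, other listed regions in grey and 95% intervals as black lines (cut at 30). In the group of 6 the member ratios are near level, from 2.86 to 4.10, whereas in the chromosome II group they run from 3.45 to 11.5.

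The largest group lay near the left end of chromosome I at chrI:450146-460174, where 6 members stood within 10.03 kb. From left to right, they held 206, 205, 230, 169, 207 and 246 ChIP reads over 56, 50, 74, 47, 51 and 86 input reads. Their folds of 2.86 to 4.10 had overlapping intervals, so that they cannot be told apart in strength. Between the fifth and the sixth stood a wider strong region, chrI:456832-458680, at a fold of 3.54 (3.02 to 4.17), and the gap between these 2 members was 3610 bp. A weak region of 35 bp lay between the fourth and the fifth, and listed regions covered 62.4% of the stretch.

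Of the 5 groups of 4, 3 lay on chromosome I. The group at chrI:14510256-14514526 spanned 4.27 kb and summed to 519 ChIP and 82 input reads, with folds of 5.72 to 10.3. The highest of these was the 260 bp region chrI:14512013-14512272, with 72 and 7 reads (4.74 to 26.5), and its interval overlaps those of the other 3. The group at chrI:2159733-2168650 had folds of 4.33 to 6.21 and wider gaps, of 1738 to 2514 bp between members. The group at chrI:4525193-4530753 had folds of 2.85 to 4.68.

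The group at chrII:13320545-13328000 was the most uneven. Its first member, chrII:13320545-13321484, held 379 ChIP against 33 input reads, a fold of 11.5 (8.04 to 16.9) at q = 3.69e-74. The next members held 321 over 73 reads (4.40, 3.40 to 5.75), 138 over 40 (3.45, 2.41 to 5.04) and 98 over 14 (7.0, 3.98 to 13.3). The first member thus exceeded the 2 after it beyond their intervals. Of the 3 non-members inside the group, one failed only by width, the 1078 bp region chrII:13321898-13322975 at a fold of 8.20 (5.60 to 12.4). Another failed only by q-value, the 273 bp region chrII:13324284-13324556 with q = 4.58e-12 at a fold of 7.20 (3.70 to 15.7).

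On chromosome V, the group at chrV:14114922-14119184 consisted of 4 members at gaps of 292, 397 and 468 bp with no other listed region inside, covering 72.9% of 4.26 kb. They held 160, 196, 166 and 233 ChIP reads over 47, 63, 48 and 97 input reads. The folds of 2.40 to 3.46 were all below the member median of 3.61, and their intervals overlap. Further listed regions lay 202 bp before the group and 222 bp after it. The member widths ran from 675 to 859 bp here and from 481 to 875 bp in the chromosome I group of 6.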

How the data were processed

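The deposited file is 1 combined list of regions for 2 ChIP and 2 input libraries. Per the file headers, coordinates are those of WormBase WS180 and the caller was PeakSeq, which compares ChIP with input reads. The deposited value is a q-value, with a largest value of just under 0.01. The version and settings of the caller, the mapping, the depth and the pooling of replicates were not given in the sources used here. No genome or annotation of WS180 was used, so no sequence or gene is given.

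Members were found by width and q-value. Members, lists and comparisons were chosen with earlier results of these data known.

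Where neighbouring lines had equal p, q-values fell by the ratio of their ranks. This held at 2665 pairs of neighbours and gave each line its rank. It placed 47 ranks before the first line, which are not analysed here. With 18572 tested regions, all 41 scanned lines became exact binomial upper tails at probability 0.5 (next best total, 2.44%). For 8116 regions (99.9%), a single pair of read numbers, ChIP and input, matched within 1e-09 in the natural logarithm of p. The tail is taken to include the observed ChIP number. Under the other convention ChIP would be lower by 1 and input higher by 1, which matters at low input. The steps were checked on data simulated with the same tail and correction. That check covers the computation and cannot show which tail or counts the caller used. Intervals are exact 95% Clopper-Pearson intervals. They treat the reads as raw counts and regions as independent, and cover counting error only.

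Named regions follow a rule on strength, grouping, isolation and nearness to the limits. It asked for the 3 largest groups, and since 5 groups tied at 4 members all were described. Alternatives were other limits of width and q-value, only regions of 501 to 1000 bp, other distances and leaving out each chromosome. Python 3.11.15, numpy 2.4.6, pandas 2.3.3, scipy 1.17.1 and matplotlib 3.10.9 were used.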

Additional observations from a re-analysis of the deposited data

How the results depend on the processing

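Of 37 alternatives to the 4 results that are differences, 36 kept the direction of the main value, and the other 10 concerned the number of members and the grouped share, which have no direction. The exception was the difference in the share with a neighbour within 1000 bp (members minus other short regions, 9.28 percentage points), which was −2.88 between midpoints, where part of each width enters the distance. It was 0.580 with a width limit of 500 bp and between 5.93 and 10.7 in the other alternatives. With a width limit of 500 bp, the number of members was 61, the X difference −1.16, the chromosome I difference 23.8, the central difference −11.6 percentage points and the share grouped within 5 kb 3.28%. With 1500 bp the number was 909, the chromosome I difference 6.66 and the central difference −1.14 percentage points and the grouped share 38.4%, beside main values of 518, 10.4, −4.14 and 26.4%. The q-value limit of 1e-15 gave 317 members and a grouped share of 20.8%, and that of 1e-10 gave 732 and 32.7%. Fewer members give fewer groups by construction. The grouped share was 17.4% within 2 kb and 34.6% within 10 kb. Among short regions wider than 500 bp the X difference was −6.23 and the central difference −12.2 percentage points. The cause of the other shifts, including that between midpoints, was not tested. The alternatives for chromosome I were chosen after seeing the data. No paired analysis was possible because replicates are merged in the list, and no replicate could be left out. The 47 absent ranks and regions past the listed limit of 0.01 are in none of the counts.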

Other observations

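Very high ratios also occurred outside the set, at regions too small to reach the q-value limit. A fold of 10 or more was found in 19 of the 5497 other short regions with read numbers. Their median width was 13 bp, and none held more than 45 ChIP or 4 input reads. The highest was chrI:1772374-1772384, 11 bp with 31 ChIP reads and 1 input read, a fold of 31 with an interval of 5.17 to 1263. Next came chrII:13677436-13677438 with 29 reads over 1 (4.81 to 1184) and chrII:7572719-7572727 with 28 over 1 (4.63 to 1145). At these read numbers the size of the fold is not known to within a factor of 10. These regions were picked with their values in view. Of the 19, 6 lay on chromosome I, 5 on V, 3 each on II and IV, 2 on III and none on X.

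One member, chrIV:3505693-3506331 (639 bp, q = 3.14e-25), matched 2 pairs of read numbers and therefore has no fold here. It stood 448 bp from another member.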
